A study of Mus musculus with 12 samples.

Results

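The comparison set late subjective night and dawn against late subjective day and dusk in the mouse olfactory epithelium, the sheet of sensory neurons, supporting cells and basal cells at the back of the nose. Pools were placed on a side by their time label alone. Of the 12 pools of the study, 8 entered, 4 on each side. The night and dawn side held CT20, CT24, CT44 and CT48, that is, phases 20 and 0 h of the circadian day. The day and dusk side held CT32 and CT56, at phase 8 h, and CT12 and CT36, at phase 12 h. The 4 pools on neither side were CT16 and CT40 in the early night and CT28 and CT52 in the morning.

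Every pool was RNA of 4 male C57BL/6 mice in equal parts on 1 whole-transcript Affymetrix array, from 48 mice in all. The mice had been held under 12 h of light and 12 h of darkness and were then sampled every 4 h in constant darkness, so no group saw light at the time of sampling. Circadian time (CT) 12 is the start of subjective night, when mice become active. Cycle 1 runs from CT12 to CT32 and cycle 2 from CT36 to CT56, and each side has 2 pools in each cycle. A gene was represented by its probe with the highest mean, which left 19937 genes, and levels are given as log2 intensities. With 1 pool per time point, a p-value measures how pools vary and says nothing on single mice. That spread includes differences between the 2 phases and the 2 cycles within a side. Precision is limited by having only 8 arrays.

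The labelled tissue showed its own markers on both sides. Omp, the olfactory marker protein of mature sensory neurons, read between 12.70 and 13.08 over the 8 pools, near the top of a scale that ended at 14.47. Cyp2g1, a cytochrome P450 of the supporting cells, read between 13.64 and 13.79. The mean correlation of a pool with the other 7 lay between 0.976, at CT56, and 0.988, at CT24.

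In mammals the circadian clock is a feedback loop of transcription. BMAL1 (encoded by Arntl) and CLOCK bind E-boxes and switch on the Per, Cry and Rev-erb (Nr1d1, Nr1d2) genes, whose proteins then shut off the activators or, for the REV-ERBs, the Arntl gene itself. ROR and REV-ERB receptors share the ROR element, and DBP, TEF and HLF, which the loop drives, bind D-boxes, as does their opponent NFIL3. The olfactory epithelium holds such a clock, and odour sensitivity of mice varies with the time of day.

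The promoter stretches that follow are shown because they belong to clock genes whose 4 pools on one side did not overlap with the 4 on the other, and because they hold one of these elements. They were read from RefSeq promoters of the build GRCm38.p6, 250 bases before to 50 after each start. Capitals mark the element, which is CACGTG for the E-box (the same letters on both strands), TAGGTCA or TGGGTCA for the ROR element and TTATGNAA for the D-box, the last 2 searched on both strands. No pair of matches in these genes shared bases.
Arntl, chr7:113207530-113207559, + strand, ROR element 31 bases after the start: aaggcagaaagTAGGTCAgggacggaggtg
Ciart, chr3:95882255-95882356, - strand, E-boxes 116, 58 and 44 bases before the start: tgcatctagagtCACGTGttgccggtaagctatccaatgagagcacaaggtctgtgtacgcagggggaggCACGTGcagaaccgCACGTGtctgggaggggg
Per3, chr4:151044804-151044882, - strand, D-boxes 205 and 158 bases before the start: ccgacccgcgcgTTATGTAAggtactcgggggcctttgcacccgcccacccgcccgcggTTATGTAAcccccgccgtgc
Tef, first promoter, chr15:81802534-81802563, + strand, E-box 127 bases before the start: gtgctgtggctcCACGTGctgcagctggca
Tef, second promoter, chr15:81811264-81811293, + strand, E-box 138 bases before the start: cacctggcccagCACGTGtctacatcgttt

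Of 19 clock genes measured, 17 had an entry, with 23 promoters. An E-box lay in 6 of these 23 (26.1%), against 7.15% of all 32851 promoters. The ROR element lay in 2 (8.7%, against 6.45%) and the D-box in 2 (8.7%, against 3.38%). A match describes the letters in this window and not a bound site.

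The question put to all genes was which functions lie on the side where BMAL1 transcripts peak and which lie opposite. By limma with Benjamini-Hochberg adjustment, 7 of 19937 genes (0.0351%) passed an adjusted p of 0.05. Higher at night and dawn were 5 genes (0.0251%): Cd44, Ksr2, Rasgrp4, Arntl and Adgrf1. Higher at day and dusk were 2 genes (0.01%): Dbp and Rnase1. With each array centred on its median, 4 genes passed higher at night and dawn and 0 passed higher at day and dusk. Before adjustment, 512 genes (2.57%) had a p under 0.05, of which 195 (0.978%) were higher at night and dawn and 317 (1.59%) at day and dusk. That split turned to 266 and 182 with median centring and was 270 and 362 after quantile normalization. Over all genes, 441 (2.21%) had sides that did not overlap, 190 higher at night and dawn (0.953%) and 251 higher at day and dusk (1.26%), a split that became 241 and 165 with median centring. An exact permutation test of 4 pools against 4 has 70 splits and a smallest two-sided p of 0.0286, so it could call none of them after adjustment. If every split were equally likely, a fraction of 0.0286 of genes would lack overlap. A fraction of 0.05 would have an unadjusted p under 0.05. Both observed shares, 2.21% and 2.57%, lay under these.

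Among the activators and receptors of the loop, Arntl was the member that passed. Its night and dawn pools read 8.72 at CT20, 8.69 at CT24, 8.88 at CT44 and 8.81 at CT48, and its day and dusk pools read 8.24 at CT12, 8.15 at CT32, 8.13 at CT36 and 8.20 at CT56. All 4 pools of the first side lay above all 4 of the second, with a gap of 0.45. The difference was 0.60 ± 0.08 (SE) on the log2 scale, or 1.51-fold (limma, adjusted p = 0.0301). It was 0.51 in cycle 1 and 0.68 in cycle 2. The Arntl call was lost with cycle as a block (adjusted p = 0.0723 in limma) and when any pool but CT56 was left out, with adjusted p up to 0.176.

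The partner Clock read 9.56 ± 0.09 (SD, n = 4) at night and dawn and 9.46 ± 0.12 at day and dusk, with overlap. Nr1d1, which encodes the repressor REV-ERB alpha, read 9.52, 9.78, 9.41 and 9.81 at CT20, CT24, CT44 and CT48, and 9.69, 10.26, 9.79 and 10.23 at CT12, CT32, CT36 and CT56. The day and dusk side was high in its phase 8 h pools only, so the sides overlapped. The Nr1d1 difference was -0.78 between phases 20 and 8 h and 0.06 between phases 0 and 12 h, and it did not pass over all 8 pools (-0.36 ± 0.14, limma adjusted p = 1.0). Nr1d2, the related REV-ERB beta gene, and Rora, a ROR receptor gene, had sides that did not overlap, but with gaps of 0.000142 and 0.00341, and differences of -0.13 and 0.06. Arntl2 and Rorb differed by -0.08 and -0.06, with overlap.

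The repressors of the loop lay mostly on the opposite side from Arntl, with 7 of 8 measured members higher at day and dusk, 3 of them without overlap, and none past the adjusted threshold (3 at an unadjusted limma p under 0.05, all 3 in that direction). Ciart encodes CHRONO, which represses the BMAL1 and CLOCK pair. It read 7.0, 7.16, 6.65 and 7.15 at CT20, CT24, CT44 and CT48, and 8.03, 7.52, 7.89 and 7.83 at CT12, CT32, CT36 and CT56. Every day and dusk pool lay above every night and dawn pool, by at least 0.35, and the difference was -0.82 ± 0.13 (limma, adjusted p = 0.122). Ciart passed in 7 of 25 alternative fits, among them the mean of all probes (-0.70, limma adjusted p = 0.0279), phase as a factor (0.014) and all 12 pools (0.0291 in 4 groups, 0.00315 in 6 phases). The others that passed were the fits with array weights and phases 0 against 12 h. Ciart did not pass with cycle as a block (limma adjusted p = 0.331) or when any 1 of the 8 pools was left out (0.179 to 0.554).

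The period genes Per3 and Per2 also had sides apart. Per3 read 8.79, 8.44, 8.55 and 8.61 on the night and dawn side and 8.88, 9.10, 8.90 and 9.11 at CT12, CT32, CT36 and CT56 (difference -0.40 ± 0.10, limma adjusted p = 0.996). Per2 read between 9.05 and 9.21 against 9.28 to 9.38 (-0.20 ± 0.07). Per1, the period gene known to be induced by acute cues, read 8.74 to 9.03 against 8.99 to 9.30, which overlapped (-0.16 ± 0.10). The cryptochromes Cry1 and Cry2 differed by 0.06 and -0.06, and the DEC repressor genes Bhlhe40 and Bhlhe41 by -0.04 and -0.19, with overlap in each.

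Of the output factors, Dbp passed. Its pools read 8.98 at CT20, 8.94 at CT24, 8.85 at CT44 and 9.05 at CT48, and 9.46 at CT12, 9.80 at CT32, 9.59 at CT36 and 9.91 at CT56. The 2 sides did not overlap, and both phase 8 h pools were above both phase 12 h pools. Dbp was lower at night and dawn by 0.73 ± 0.10 (SE) on the log2 scale, 1.66-fold (limma, adjusted p = 0.0412, and 0.0861 with median centring). The Dbp call was also lost with cycle as a block (adjusted p = 0.115 in limma) and when any pool but CT12 was left out, with adjusted p up to 0.248. Tef differed by -0.22 ± 0.09 with a gap of 0.00102 between the sides. Hlf differed by -0.19 and Nfil3 by -0.03, and in both the sides overlapped. Over the 19 clock genes, 2 passed, against 0.0351% of all genes, and 8 had sides that did not overlap, against 2.21%. Of these 8, the gaps of Tef, Nr1d2 and Rora were those near 0 given above.

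**Figure D1:**
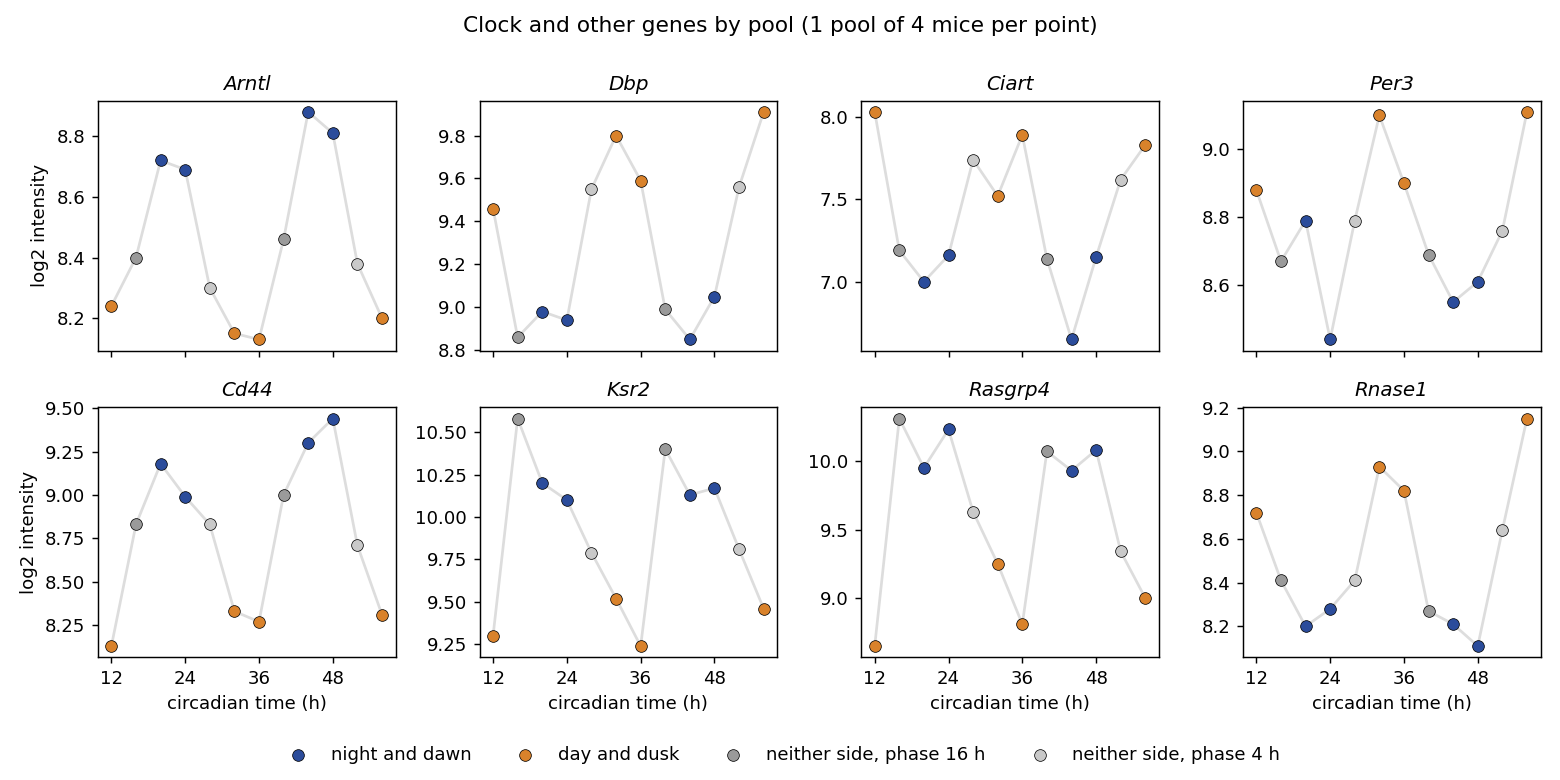
Log2 intensity (y) against circadian time in hours (x) for 8 genes, 1 point per pool of 4 mice; blue points are night and dawn, orange points day and dusk, and grey points the pools on neither side. Arntl, Cd44, Ksr2 and Rasgrp4 have their blue points above their orange points in both cycles, Dbp, Ciart, Per3 and Rnase1 have them below, and Ksr2 is highest at CT16.

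On the night and dawn side, outside the clock, 4 genes passed, and the first was Cd44, a cell surface receptor for the matrix sugar hyaluronan. Cd44 read 9.18, 8.99, 9.30 and 9.44 at CT20, CT24, CT44 and CT48, and 8.13, 8.33, 8.27 and 8.31 at CT12, CT32, CT36 and CT56. The lowest night and dawn pool lay 0.66 above the highest day and dusk pool. The difference was 0.97 ± 0.10, or 1.95-fold (limma, adjusted p = 0.00959). The Cd44 call was lost when CT44 was left out (difference 0.94, limma adjusted p = 0.0533) and kept when any of the other 7 pools was left out. The other 18 measured genes of the hyaluronan list, which holds its synthases, hyaluronidases and binding proteins, differed by -0.21 to 0.16, with a median of -0.02. Has3, a hyaluronan synthase, was the one of these 18 at an unadjusted p under 0.05, and it lay on the opposite side (-0.21 ± 0.08, sides apart by 0.03, limma adjusted p = 1.0).

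A further pair of these genes acts on the Ras pathway. Ksr2 encodes a scaffold that holds RAF, MEK and ERK kinases together, and Rasgrp4 an exchange factor that loads Ras with GTP. Ksr2 read 10.20, 10.10, 10.13 and 10.17 at CT20, CT24, CT44 and CT48, and 9.30, 9.52, 9.24 and 9.46 at CT12, CT32, CT36 and CT56. The 4 night and dawn values of Ksr2 lay close together, all above the day and dusk values (difference 0.77 ± 0.08, 1.71-fold, limma adjusted p = 0.00959). Rasgrp4 read 9.95, 10.23, 9.93 and 10.08 on the first side and 8.65, 9.25, 8.81 and 9.0 on the second. Its sides were 0.68 apart, and the difference was 1.12 ± 0.12, or 2.17-fold (limma, adjusted p = 0.00959). Both calls were lost when CT24, CT44 or CT48 was left out, with adjusted p between 0.0532 and 0.0577.

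Rasgrp4 is also known from mast cells, and it was 1 of 11 genes on the mast cell list. The other 10 differed by -0.14 to 0.08, none at an unadjusted p under 0.05, and their mean level was 6.20 to 6.38 at night and dawn and 6.24 to 6.44 at day and dusk. Among them Cpa3, the mast cell carboxypeptidase, read 5.46 and 5.6 as side means, and the Fc receptor genes Fcer1a and Ms4a2 read 5.32 and 5.45, and 5.32 and 5.33, all in the lowest quartile of gene levels.

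Adgrf1, an adhesion receptor coupled to G proteins, read 8.01, 8.07, 8.0 and 8.25 at CT20, CT24, CT44 and CT48, and 7.58, 7.51, 7.45 and 7.41 at CT12, CT32, CT36 and CT56. Its sides did not overlap, and the difference was 0.59 ± 0.08 (1.51-fold, limma adjusted p = 0.0412). The Adgrf1 call was lost whenever any 1 of the 8 pools was left out, with adjusted p from 0.0753 to 0.248, while the difference stayed between 0.54 and 0.63.

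The named genes outside the clock were filled to 12 on each side by the smallest p, so 8 of the 12 at night and dawn did not pass. All 12 had sides without overlap, which a choice by small p in the same 8 pools favours. The next by p was Kirrel2. It encodes an adhesion molecule by which olfactory axons sort into glomeruli. It read 11.49, 11.80, 11.45 and 11.75 at CT20, CT24, CT44 and CT48, and 10.71, 10.33, 10.80 and 9.90 at CT12, CT32, CT36 and CT56. The lowest values were the phase 8 h pools, and the difference was 1.19 ± 0.17 (2.28-fold, limma adjusted p = 0.0551).

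The other named genes of this side, none of which passed, had various roles. Epha7 and Epha5, receptors for the ephrin guidance cues, differed by 0.84 ± 0.15 and 0.63 ± 0.12 (limma, adjusted p = 0.184 and 0.308). Epha5 read 9.71 to 9.87 at night and dawn and 8.78 to 9.40 at day and dusk. Kcnmb3, an accessory subunit of calcium-activated potassium channels, differed by 0.68 ± 0.14. Scn3b, an accessory subunit of sodium channels, differed by 0.44 ± 0.09. Pcp4l1, a small protein related to the neuronal PCP4, differed by 0.44 ± 0.10, and only the CT32 pool, at 12.68, came near the night and dawn pools, the lowest of which read 12.72. Crabp2, which carries retinoic acid to the nucleus, differed by 0.60 ± 0.11, and H2-M10.6, a nonclassical MHC class I gene, by 0.54 ± 0.12.

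On the day and dusk side, Rnase1, a secreted ribonuclease, passed. It read 8.20, 8.28, 8.21 and 8.11 at CT20, CT24, CT44 and CT48, and 8.72, 8.93, 8.82 and 9.15 at CT12, CT32, CT36 and CT56. The day and dusk pools were all higher, by at least 0.44, and Rnase1 was lower at night and dawn by 0.71 ± 0.10 (SE) on the log2 scale (1.63-fold, limma adjusted p = 0.0412, and 0.0723 with median centring). The Rnase1 call was also lost with cycle as a block (adjusted p = 0.115 in limma) and when any pool but CT12 or CT56 was left out, with adjusted p up to 0.223. Of 15 secreted ribonucleases measured, 12 were lower at night and dawn (80.0%, against 72.4% in the dimmest quartile of genes). Their median was -0.06, with 1 call, Rnase1. The other 14 had no member at an unadjusted limma p under 0.05.

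The other 11 named genes of this side did not pass. Fmo5, a flavin monooxygenase that oxidises foreign and endogenous compounds, was the next by p. It read 11.23, 11.24, 11.34 and 11.26 at CT20, CT24, CT44 and CT48, and 11.78, 11.73, 11.75 and 11.62 at CT12, CT32, CT36 and CT56. The 8 values form a pair of tight groups 0.28 apart, with a difference of -0.45 ± 0.07 (1.37-fold, limma adjusted p = 0.122).

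The channel and signalling genes here were Kcnq1, a voltage-gated potassium channel (-0.33 ± 0.08), and Gpr155, a cholesterol sensor of the lysosome membrane (-0.32 ± 0.08). Eomes, a T-box transcription factor, read 8.06 to 8.13 at night and dawn and 8.27 to 8.93 at day and dusk (-0.49 ± 0.12, limma adjusted p = 1.0). Eomes was on the brain and olfactory bulb list, whose other 14 members had overlapping sides. Coro6, a coronin that binds actin, differed by -0.32 ± 0.07. Dlec1, a gene of cilia, differed by -0.37 ± 0.09 and Cntd1, a factor of meiotic crossover, by -0.42 ± 0.08. Slc35f4, Spats1, Stmnd1 and Iqch differed by -0.40, -0.44, -0.31 and -0.34.

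**Figure D2:**
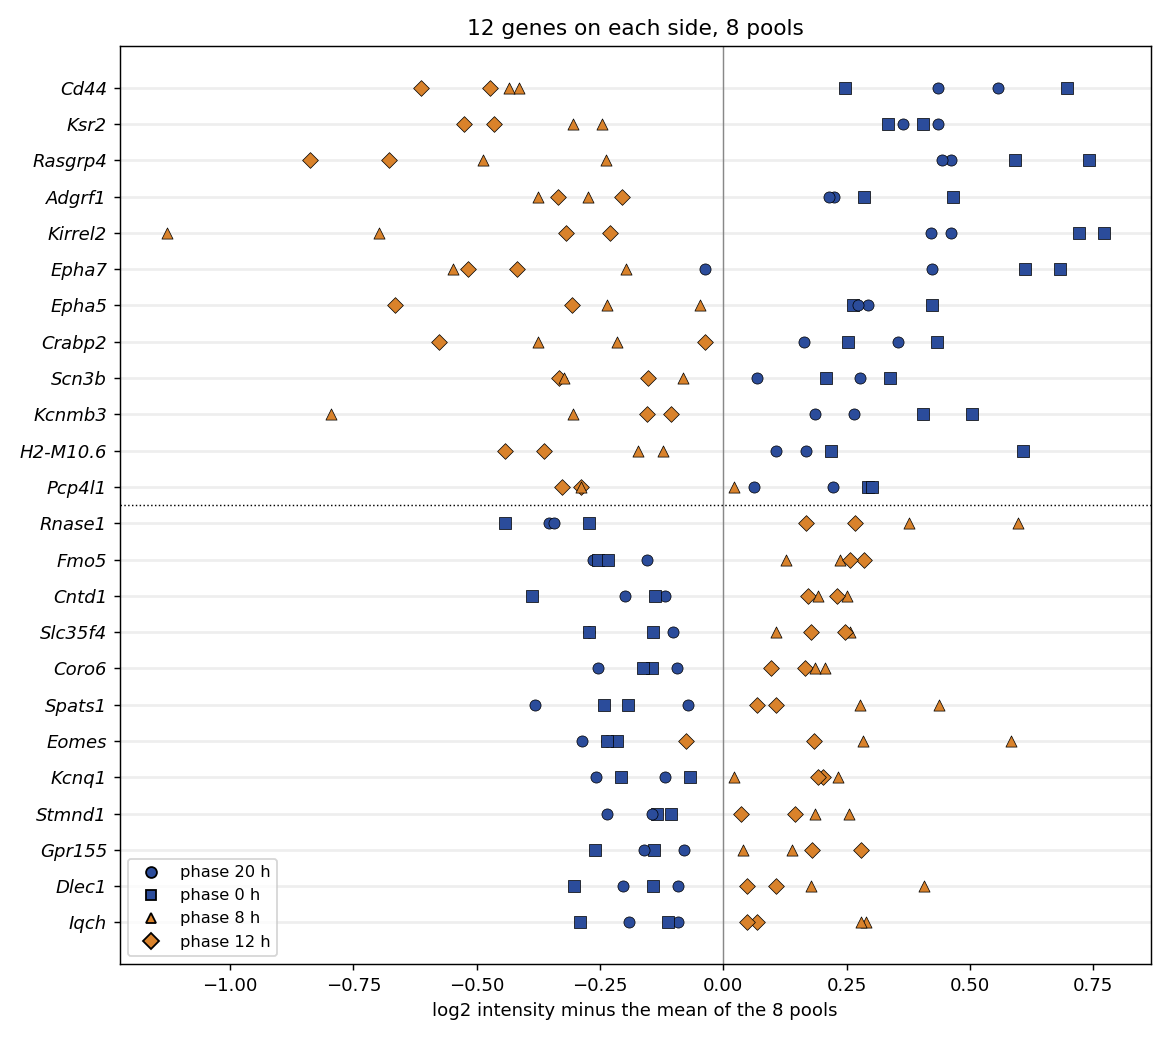
Log2 intensity of each of the 8 pools minus their mean (x) for the 12 named genes of each side (y), with symbols for the phase; blue is night and dawn and orange is day and dusk. The colours separate in every row, which the choice of genes by small p in the same 8 pools favours. The widest spread is that of Kirrel2, and the Pcp4l1 pool at CT32 lies closest to the other side.

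The levels in the early night pools, which took no part in the comparison, split the night and dawn genes. Ksr2 read 10.58 at CT16 and 10.40 at CT40, above all 8 pools compared. Kirrel2 read 12.10 and 11.80, and Epha7 9.71 and 9.70, at the same times. Of the 12 named genes of the night and dawn side, 8 had their highest pool of all 12 in the early night, 7 of them at CT16, and in 11 the early night mean was closer to night and dawn than to day and dusk. In Cd44 and Arntl the early night means, 8.92 and 8.43, lay between the means of their 2 sides. Of the 12 named day and dusk genes, all 12 had an early night mean below that of day and dusk. In 4 of them the lowest of all 12 pools was in the early night, at CT16 for Spats1 (7.57), Eomes (7.99) and Stmnd1 (8.06) and at CT40 for Iqch (6.86). These 12 genes were chosen for high values at day and dusk in the same data, which favours lower values in other pools. No share over all genes is set beside the counts of either side.

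Gene lists were described by counts and medians beside those of all genes, without a test of the list. Lists and members were chosen with earlier results of these data known, so a share above that of all genes can reflect that choice. Over 81 lists with 3781 measured genes in all, medians lay between -0.20 and 0.08, against -0.02 for all genes. A called gene was present in 5 lists, and 2 called genes, Ksr2 and Adgrf1, were in none. The lowest median was that of the output factors, -0.20, followed by the clock repressors, -0.18. These were also the 2 lists whose mean levels did not overlap between the sides. The repressor mean was 8.46 to 8.66 at night and dawn and 8.72 to 8.88 at day and dusk, and the output factor mean was 9.02 to 9.10 against 9.24 to 9.55. These means include Ciart (-0.82) and Dbp (-0.73), the members with the largest differences. They were not taken again without them, so the lack of overlap can rest on a single gene in each list.

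The share of genes above 0 moved with the level of the gene. Differences were above 0 in 42.7% of all genes, but by quartile of level, from the dimmest to the brightest, in 27.6%, 30.9%, 49.9% and 62.4%. Across 80 lists of at least 5 measured genes, list mean level and median difference had Pearson's r of 0.41 and Spearman's rho of 0.52, a description of lists that share the same 8 arrays and some genes. The medians of the pools differed too, from 7.81 at CT48 to 7.92 at CT36. With median centring the median of all genes went from -0.02 to 0.01, so a list median of this size has no firm direction. The part of level and array scale in the list counts was not tested.

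Among genes of smell, the odorant receptors numbered 1027, of which 718 (69.9%) were lower at night and dawn. Their mean level, 7.31, falls in the level quartile in which 30.9% of genes lay above 0, and of the receptors 30.1% did. Receptors without overlap were 12 of 1027 (1.17%), under the 2.21% of all genes, and none passed in limma (32 at an unadjusted p under 0.05, 30 of them lower at night and dawn). Olfr531 had the smallest p, with 6.75 to 7.11 at night and dawn and 7.29 to 7.65 at day and dusk (-0.54 ± 0.11, limma adjusted p = 0.455). Olfr1308, the one with the smallest p in the other direction, differed by 0.19 ± 0.08 at a level of 4.40 to 4.84. The 21 genes that turn odour binding into current had a median of -0.02, with 9 higher and 12 lower at night and dawn.

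The 27 guidance and adhesion genes of olfactory axons included 3 without overlap (11.1%, against 2.21% of all genes), with none past the threshold. Beside Kirrel2 and Epha5, the third was Kirrel3, the relative of Kirrel2 that marks a complementary set of olfactory axons; it is named after its values were seen. Kirrel3 read 9.57, 9.61, 9.38 and 9.66 at CT20, CT24, CT44 and CT48, and 10.01, 9.93, 9.80 and 9.78 at CT12, CT32, CT36 and CT56. The difference had the sign opposite to that of Kirrel2, -0.32 ± 0.09, and its adjusted p in limma was 1.0. Efna5, an ephrin ligand of EPHA5 that was also named after its values were seen, differed by -0.26 ± 0.09, with overlap. The median of this list was -0.02, with 12 genes higher and 15 lower at night and dawn.

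Genes that other tissues place under clock control numbered 22 measured, 4 of them without overlap (18.2%, against 2.21% of all genes) and none past the threshold. These were Fmo5, described above, Usp2, Tspan4 and Ypel2, the last 3 named after their values were seen. Usp2, a deubiquitinase that acts on clock proteins, differed by -0.33 ± 0.10, Tspan4, a tetraspanin, by -0.23 ± 0.08, and Ypel2 by 0.18 ± 0.08. The list median was 0.02.

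Genes of detoxification, which the supporting cells express strongly, had members on both sides. Of 65 cytochromes P450, 44 were lower at night and dawn, which is 67.7%, against 72.4% of the dimmest level quartile, where the list mean of 7.04 falls. Their median was -0.05, with none past the threshold. In 6 the sides did not overlap (9.23%, against 2.21% of all genes), 2 of them higher and 4 lower at night and dawn. Cyp2e1, which oxidises small solvents, read 9.67, 9.55, 10.13 and 9.87 on the night and dawn side and 9.35, 9.31, 9.47 and 9.49 on the day and dusk side. The night and dawn pools lay above the others, against the direction of most of the list (0.40 ± 0.12, limma adjusted p = 1.0). Of 42 transferases of glutathione, glucuronide and sulfate, 4 had sides apart (9.52%), all 4 lower at night and dawn, a direction in which 1.26% of all genes had sides apart. Gsto2, a glutathione transferase named after its values were seen, differed by -0.37 ± 0.11. Sult1e1, the sulfotransferase of oestrogens, had the smallest p of the list at 0.74 ± 0.21, with its CT56 pool, at 11.03, inside the range of the other side.

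The lists with the highest medians concerned protein synthesis and turnover, fat synthesis, connective tissue and small nucleolar RNAs. Of 48 proteasome subunits, 40 were higher at night and dawn (83.3%, against 62.4% of the brightest quartile of genes), with a median of 0.07 and none past the limma threshold (2 at an unadjusted p under 0.05). Psmd6, a subunit of the proteasome cap, read 10.38 to 10.58 against 10.07 to 10.36, with a difference of 0.25 ± 0.09. Of 60 cytosolic ribosomal proteins, 43 were higher (71.7%), with a median of 0.06. Rps9, a small subunit protein, differed by 0.23 ± 0.10 with overlap. Nars, the asparagine tRNA synthetase, differed by 0.17 ± 0.08 within a list of 31 of which 25 were higher. That is 80.6%, against 49.9% of the level quartile of the list mean, 8.92, and the list median was -0.02 in cycle 1. Of 16 fatty acid synthesis genes, 11 were higher (68.8%, against 62.4% of the brightest quartile), with a median of 0.05. That median was -0.03 in cycle 1 and -0.01 between phases 20 and 8 h. Scd2, a desaturase of fatty acid synthesis, differed by 0.22 ± 0.09. The small nucleolar RNA median of 0.06 was -0.29 between phases 20 and 8 h and 0.43 between phases 0 and 12 h, and it turned below 0 without CT44 (-0.03), CT12 (-0.06) or CT36 (-0.05).

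The lists with the lowest medians, beside the clock, the odorant receptors and the ribonucleases, were mitosis and the keratins, each at -0.06. The medians of mitosis, keratins, odorant receptors, proteasome and ribosomal proteins kept their sign after quantile normalization and median centring. Of 26 mitosis genes, 22 were lower at night and dawn (84.6%), at a mean level of 7.18, in the level quartile where 69.1% of genes were lower. The mitosis median was -0.03 with median centring. The list means were 7.09 to 7.19 at night and dawn and 7.18 to 7.28 at day and dusk. Aurka, a kinase of the mitotic spindle, read 7.57 to 7.84 against 7.79 to 7.96 (-0.20 ± 0.09, limma adjusted p = 1.0). Of 48 keratins, 37 were lower (77.1%, against 69.1% in their level quartile), and Krt16, a keratin of stressed epithelia, differed by -0.27 ± 0.10. The keratin median was 0.10 between phases 20 and 8 h and -0.24 between phases 0 and 12 h, and 0.02 without CT36, as was that of the ribonucleases.

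**Figure D3:**
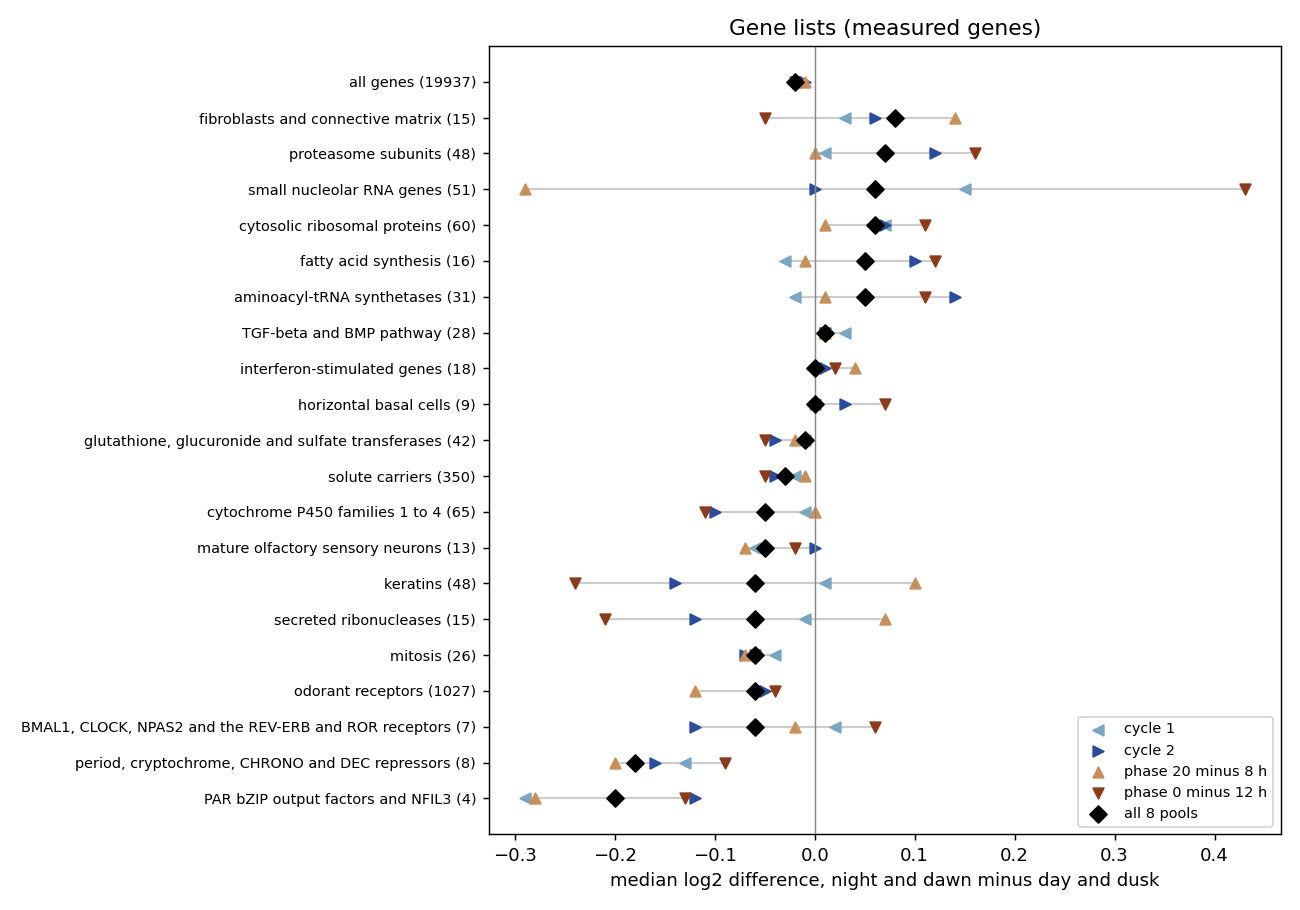
Median log2 difference, night and dawn minus day and dusk (x), of gene lists (y, with the number of measured genes), for the lists with the 6 lowest and 6 highest medians and those whose median kept its sign in both cycles and both phase pairs; black diamonds use all 8 pools and coloured triangles a single cycle or phase pair. The clock repressors and output factors lie lowest, and the triangles of the small nucleolar RNAs spread from -0.29 to 0.43.

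Marker lists of 22 cell types were examined, since a pool of bulk tissue cannot tell fewer cells of a type from less RNA per cell. In 21 of them no member passed, and the mast cell list held Rasgrp4. The mature sensory neuron markers had 4 of 13 members higher and 9 lower, with a median of -0.05, and the 2 without overlap were Kirrel2 and Pcp4l1. Without these, the mean of the other 11 was 11.80 to 11.98 at night and dawn and 11.89 to 12.05 at day and dusk. Immature neurons had a median of 0.01 over 15 genes, with Dcx, a microtubule protein of young neurons, at -0.14 ± 0.11. Precursors had 0.04 over 10 genes, horizontal basal cells 0.00 over 9 and supporting cells 0.01 over 12, all with overlapping list means. The basal cell marker Krt5 read 9.03 to 9.37 over the 8 pools.

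Markers of tissue around the epithelium varied between single pools more than between sides. The nasal gland list mean ran from 9.19 to 10.74 at night and dawn and from 8.98 to 10.43 at day and dusk. Bpifb9a, a secreted gland protein, read 7.83, 10.63, 12.73 and 10.69 at CT20, CT24, CT44 and CT48, and 7.18, 9.91, 7.42 and 10.01 at CT12, CT32, CT36 and CT56. Its sides overlapped, so that a difference of 1.84 ± 0.91 did not pass (limma, adjusted p = 1.0). Fibroblast and matrix genes had a median of 0.08 over 15 genes, which was -0.04 without CT44 and -0.05 between phases 0 and 12 h, with list means of 8.88 to 9.29 against 8.90 to 9.07. Pdgfra, a growth factor receptor of fibroblasts and the list's gene with the smallest p, differed by -0.16 ± 0.09. Endothelial genes were higher at night and dawn in 12 of 13 (92.3%, against 30.9% of the level quartile where their mean of 7.98 falls). Their median was 0.03, and -0.04 between phases 0 and 12 h, with Tek, a vessel receptor kinase, at 0.24 ± 0.09.

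Motile cilia genes of the respiratory lining had 16 of 23 members lower (69.6%, against 50.1% in their level quartile). Their median was -0.05, and 0.09 between phases 0 and 12 h. Dnaic1, a dynein chain of motile cilia, differed by -0.25 ± 0.11, with overlap. The smooth muscle gene Acta2 read 11.5 to 11.75 against 11.17 to 11.49 (0.29 ± 0.09, adjusted p = 1.0 in limma) with a list median of 0.01. Macrophage, neutrophil, lymphocyte and erythroid medians were -0.03, 0.03, -0.02 and -0.02, and those of bone, cartilage and skeletal muscle -0.02, -0.03 and -0.03. Microvillar cells, ensheathing glia, secretory cells of the respiratory lining, and brain had -0.02, 0.00, 0.02 and -0.01. The part of tissue makeup in the results was not tested.

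The comparison can be split by phase pair or by cycle, and the parts of a split share no pools. Between phases 20 and 8 h and between phases 0 and 12 h, differences across all 19937 genes had a Pearson correlation of -0.5, and 28.5% had the same sign. Between cycles 1 and 2 the correlation was 0.04, and 48.7% had the same sign. These are correlations across genes on shared arrays, and genes are not independent replicates. List medians had opposite signs in the 2 phase pairs for 57 of 81 lists, while 13 lists kept their sign in both pairs and both cycles, among them the clock repressors and output factors, mitosis, the ribosomal proteins and the proteasome. Some of these medians were close to 0. The proteasome had 0.00 between phases 20 and 8 h and 0.01 in cycle 1, and the ribosomal proteins 0.01 between phases 20 and 8 h. The median of all genes kept its sign too, between -0.02 and -0.01.

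For the 24 named genes of the 2 sides, a lack of overlap fixes the same sign in both phase pairs and both cycles, so only the sizes are given. Cd44 differed by 0.92 and 1.02 in the phase pairs and Rasgrp4 by 0.82 and 1.42. The clock gene Dbp, which is not among the 24 but also lacked overlap, differed by -0.93 and -0.53. The side difference of 0 genes changed between the cycles by a limma interaction after adjustment, and 169 (0.848%) had an unadjusted p under 0.05. Olfr171, an odorant receptor gene, had the smallest interaction p (cycle 2 minus cycle 1, 1.31 ± 0.26, limma adjusted p = 1.0).

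**Figure D4:**
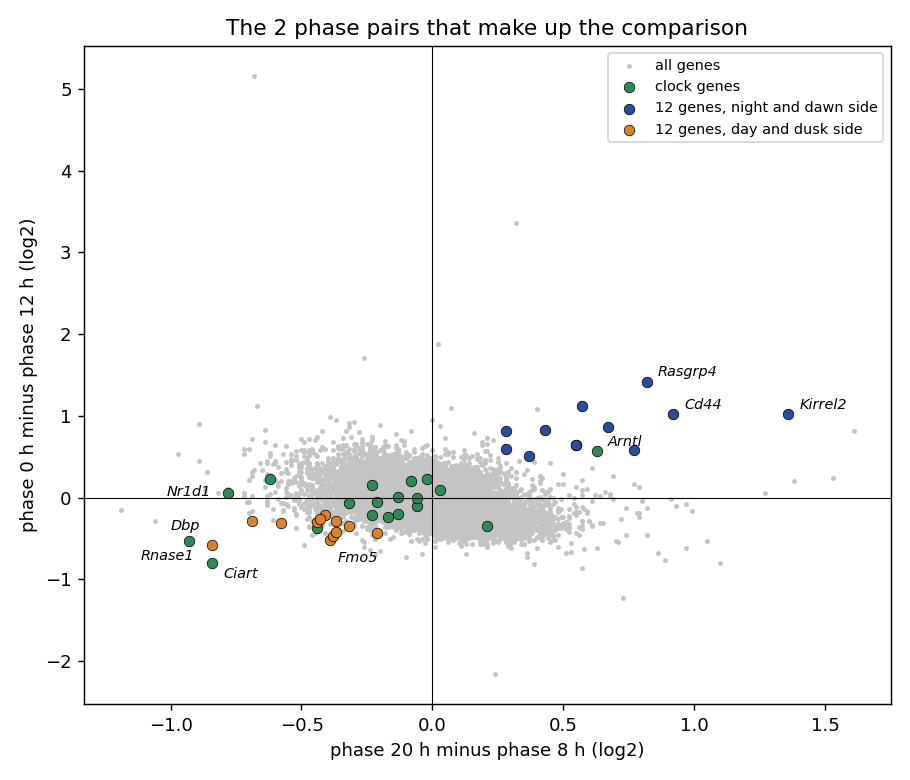
Log2 difference between phases 20 and 8 h (x) against that between phases 0 and 12 h (y), 1 grey point per gene; green points are clock genes, blue and orange points the 12 named genes of each side. The grey cloud slopes downward (correlation -0.5), and the blue and orange points lie in the upper right and lower left because genes without overlap can lie nowhere else; Nr1d1 lies at -0.78 on x and 0.06 on y.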

How the data were processed

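Per the labels' protocols, Trizol RNA was copied by random priming over whole transcripts and labelled with biotin. The authors deposited 1 value per probe and pool, taken here as log2 intensities because they range from 3.48 to 14.47, made with affy per the submitters' processing notes. The log2 scale is not stated in the labels, and which background correction and normalization affy ran is not given in the sources used here. Of 34760 probes, 21640 had 1 symbol in the platform annotation (1321 had several, 11799 were not listed); 954 of the 19937 genes had more than 1 probe. The 13120 probes without 1 symbol gave 0 calls and 272 unadjusted p under 0.05 in the same fit.

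Sides were compared with limma 3.58.1 in R 4.3.3 over 8 pools, with no filter on dim genes and a threshold of 0.05 after Benjamini-Hochberg adjustment. On simulated data, 19937 genes had independent normal noise, and differences of 0.3, 0.5 and 1 were added to 67, 67 and 66 genes. The fit found 7.5%, 55.2% and 95.5% of these, with 11 false calls among the other genes. That many true differences make the adjusted threshold easier to pass than in the data, where 7 genes passed. The shares found therefore do not carry over to the data. Figures used matplotlib 3.10.9, pandas 2.3.3, numpy 2.4.6 and Python 3.11.15.

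Named were all clock genes and 12 genes per side by smallest p (leaving out receptors, predicted and small RNA genes). For each side, those past the threshold also had to lack overlap, and the rest were filled in by p alone. Per list, the members that passed or the one with the smallest p were named. For lists described in full, the smallest p in the other direction was added where it was under 0.05 unadjusted, a limit set after the data were seen. Members and lists were chosen with earlier results of these data known. Alternatives were other normalizations, filters, probe rules, variance models, blocks, wider sets of pools, single cycles or phase pairs, and leaving out each pool.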

Additional observations from a re-analysis of the deposited data

Results flagged for a closer look

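Single pools stood apart from the other 3 of their side in 9 of 214 sets of 4 values tested, where chance gives about 1 in 20, or 10.7. The measure is the gap of the extreme pool to its nearest neighbour as a share of the range of the 4, and values above Dixon's critical value for 4 are given. For clock genes, Per1 was low at CT44 (0.926) and Clock was low at CT36 (0.833). Epha5 was high at CT48 (0.842), Krt16 was low at CT48 (0.835), Pcp4l1 was high at CT32 (0.889) and Tek was high at CT36 (0.897). Of the list means, immature sensory neurons were low at CT44 (0.85), microvillar cells high at CT20 (0.836) and fatty acid synthesis high at CT48 (0.858).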

How the results depend on the processing

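The count of 7 genes past the threshold stayed between 7 and 10 with quantile normalization, filters at the 25th or 50th percentile of level, averaged probes per gene, a variance prior with trend and robust fit, or phase as a factor. It was 4 with median centring, 3 with cycle as a block, 11 and 14 with all 12 pools in 4 groups or 6 phases, 3 without CT32 and CT56, 0 and 29 for phases 20 against 8 h and 0 against 12 h, 4 and 0 in the first and second cycle, and 0 by the exact permutation test (441 at an unadjusted p under 0.05). Array weights gave 2997, with a weight of 27.34 for CT12 in an estimate that had not converged; gene-by-gene weights, added after the data were seen, gave 25. Leaving out each pool gave 0 to 7 genes: 0 without CT44 (405 at an unadjusted p under 0.05), 1 without CT24 or CT48, 3 without CT32, 4 without CT20 or CT36, 5 without CT12 and 7 without CT56. The 441 genes without overlap became 247 above the 50th percentile, 207 with a difference of at least 0.2, and 565 to 1518 with a pool left out. The interaction with cycle gave 0 genes with median centring too (168 unadjusted). No paired analysis was possible because the labels give no replicate numbers; the cycle block is the nearest fit. Of 72 named genes, 54 kept their sign in every alternative. In 40 of the 72 the sides did not overlap. For these 40 the sign was fixed in advance with pools left out, in single cycles or phase pairs, and with array weights. Signs turned, with no cause tested, for phases 20 against 8 h in Clock (-0.02), Cry1 (-0.08), Rorb (0.21), Casq1 (0.02), Snorc (0.04), Sox2 (-0.13), Cd79b (0.13) and Klf1 (0.09), and for phases 0 against 12 h in Nr1d1 (0.06), Bhlhe41 (0.23), Cry2 (0.01), Bhlhe40 (0.15), Nfil3 (0.00), Dcx (0.09) and Snora44 (0.22). With array weights they turned in Bhlhe41 (0.01), Bhlhe40 (0.11), Nfil3 (0.06), Scgb1a1 (0.01), Ltc4s (0.01), Neurog1 (0.03) and Snora44 (0.24), and gene by gene in Bhlhe40 (0.06), Nfil3 (0.02) and Snora44 (0.07). Without CT32 and CT56 they turned in Bhlhe41 (0.08), Cry2 (0.00), Bhlhe40 (0.13), Nfil3 (0.03) and Snora44 (0.30). With a pool left out they turned in Cry1 (range -0.00 to 0.13), Rorb (-0.15 to 0.04; 0.00 without CT36), Bhlhe40 (-0.10 to 0.06), Nfil3 (-0.06 to 0.05) and Snora44 (-0.44 to 0.05), in single cycles in Rorb (0.13), Cd79b (0.00) and Nfil3 (0.02), and with median centring in Nfil3 (0.00).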
